A study of Mus musculus with 18 samples.

Results

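Dorsal root ganglion (DRG) neurons cultured from mouse embryos were cut across their axons and their RNA was sequenced 16 h later, beside cultures that were left uncut. The comparison covered the 3 libraries of cultures collected at 16 hours post injury (HPI) and the 3 libraries of uninjured control cultures, 6 of the 18 libraries of the series, and every gene above 1 CPM, its counts scaled to a common library total, in at least 3 of the 18 libraries. Of 47643 genes listed, 13771 passed that filter. The libraries were chosen by label and the genes by level, with no test of a difference between the groups. A gene under 1 CPM in every control library could still pass only through injured libraries. Bpifc, Upp1, Grk1, Smim3, Dhrs9, Fosb, Nts and Kcnj6 did so, among others. Low control values of such genes are in part set by the filter. Both groups were eDRG spot cultures, in which ganglia of CD-1 mouse embryos (e13.5) were dissociated and plated as a dense spot from which axons grew outwards. All cultures, injured or not, were kept in nerve growth factor and in 5-fluorodeoxyuridine (FDU), which removes dividing cells. The control cultures were not cut, and in the others the axons were severed with a blade and the cells collected 16 h later. The labels give day 7 in vitro for all cultures without saying whether that was the day of injury or of collection. Nothing in the labels says whether replicates came from separate litters. The p-values measure the spread left between these cultures, over all 18 libraries, once differences between replicate numbers are taken out. As a model the cultures held embryonic neurons with few of the non-neuronal cells that surround them in a nerve.

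A DRG neuron carries touch, temperature and pain signals from the periphery to the spinal cord through a single axon with a peripheral and a central branch. When the peripheral axon is cut, stress kinases carry a signal back to the soma, where transcription factors of the AP-1 family such as ATF3 and JUN are induced and genes for growth and for survival or death are switched on. Genes for ion channels and neurotransmission are known to decline in the same neurons. The series asked which genes take part in this response in culture.

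Counts on genes ranged from 13756966 to 20428645 over the 6 libraries, a depth that limits the precision of any gene with few counts. The cultures carried the label of sensory neurons in their RNA, since the summed CPM of 12 sensory neuron markers was between 13768 and 14117 in the control libraries and between 12182 and 13557 at 16 HPI. A list of 15 satellite glia and Schwann cell markers summed to 193 to 246 CPM in the control and to 176 to 217 CPM at 16 HPI. The 7 genes of an endothelial list summed to 25 CPM or less and the 10 genes of a myeloid list to 7.53 CPM or less in every one of the 6 libraries, with the myeloid gene Itgam at 0 throughout. Among 8 fibroblast markers 6 were tested and 1 rose, Dcn, from 0.783, 0.218 and 0.699 CPM to 2.99, 1.47 and 2.93 CPM, while the sum of the list lay between 3.93 and 22.7 CPM in the control and between 6.83 and 21.4 CPM in the injured libraries. The first 16 HPI library stood apart from the other 5, with 4.95% of its counts on a list of residual rRNA and other abundant RNA against 1.01% to 1.76% in the others.

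At 16 HPI, 1477 of the 13771 genes were higher than in the control (10.7%) and 1578 were lower (11.5%) at an adjusted p under 0.05, by the quasi-likelihood test of edgeR with the replicate number as a batch term and Benjamini-Hochberg adjustment over all genes tested. In what follows, "rose" and "fell" refer to this test, fold changes are on a log2 scale with their SE, and a gene is said to be called where it also changed more than 2-fold. Of the genes, 162 were called higher (1.18%) and 43 were called lower (0.312%), and in a fit with no batch term 101 and 7. Without the second 16 HPI library 66 were called lower. With upper-quartile scaling the balance at an adjusted p under 0.05 turned, to 1732 higher and 1346 lower, as it did with a minimum of 10 counts over all libraries (1459 and 1362) and with no batch term (406 and 300). The median log2 fold change over all genes was -0.002. Among the called genes, 159 of the 162 higher and 41 of the 43 lower had the same sign of change in each of the 3 batches. The calls came from these same libraries, so that this agreement is no independent evidence. The 3 injured libraries lay wholly above the 3 control libraries for 142 of the called higher genes and wholly below for 24 of the called lower genes, against 9.77% and 6.45% of all genes tested. Many of the called genes were low in the group where they were lower. A mean under 1 CPM was found in the control for 82 of the higher genes and at 16 HPI for 25 of the lower ones.

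**Figure D1:**
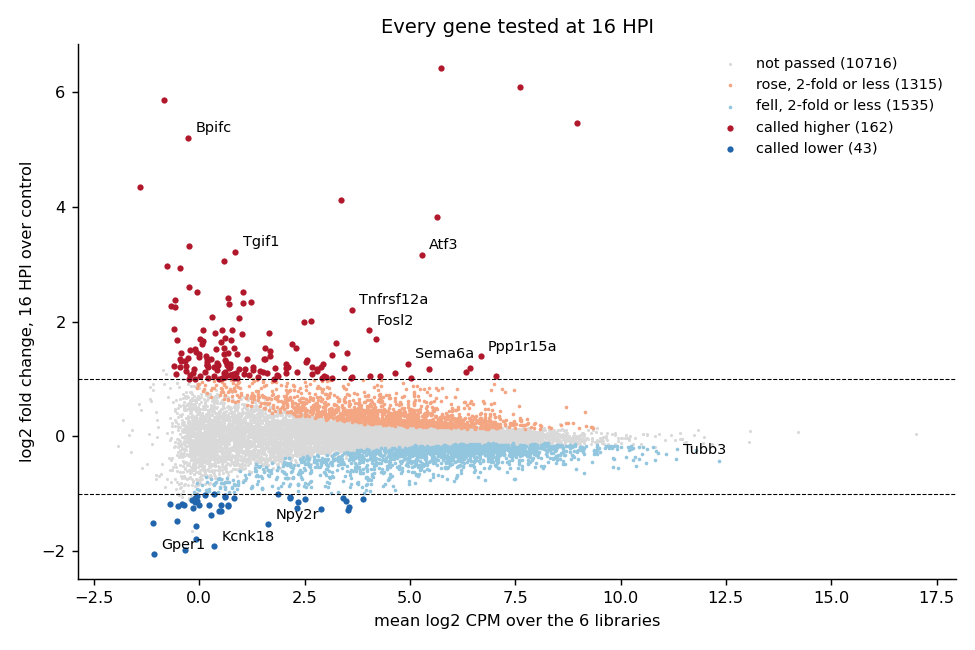
Each point is one of the 13771 genes tested, with its mean log2 CPM over the 6 libraries on the x axis and its log2 fold change at 16 HPI over control on the y axis, and the dashed lines mark 2-fold. The 162 called higher genes (dark red) reach further from 0 than the 43 called lower genes (dark blue), and most genes that fell did so by less than 2-fold.

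Apart from genes on the residual RNA list, most of the genes that rose most were nearly silent in the control cultures and present in all injured libraries. The filter and the ranking by fold change both favor such genes, so that this pattern is no result of its own. Bpifc (ENSMUSG00000050108.12, chromosome 10 from 85959340 to 86011895 of GRCm38), a member of the lipid-binding BPI fold family, had 1, 2 and 2 counts in the control libraries and 95, 40 and 42 at 16 HPI, which made 38.8 times the share of counts (95% interval 16.3 to 121, exact, counting error only). Upp1 (ENSMUSG00000020407.13, chromosome 11 from 9118103 to 9136170), the uridine phosphorylase of pyrimidine salvage, had 0, 1 and 1 counts and then 6, 23 and 19, a ratio of 26.3 (interval 6.89 to 223). The groups did not overlap for either gene, and the first 16 HPI library was the highest of its group for Bpifc and the lowest for Upp1. Tgif1 (ENSMUSG00000047407.17, chromosome 17 from 70844205 to 70853546), a homeodomain corepressor of SMAD proteins, had 0.245, 0.291 and 1.25 CPM in the control and 4.93, 5.53 and 6.38 CPM at 16 HPI, a log2 fold change of 3.22 ± 0.34, adjusted p = 1.23e-06. Atf3 (ENSMUSG00000026628.13, chromosome 1 from 191170296 to 191218039), the stress-induced transcription factor most used as a mark of an axotomized neuron, rose from 7.34, 14 and 19.3 CPM to 109, 126 and 124 CPM (3.16 ± 0.21, adjusted p = 4.11e-09). For both genes the third control library was the highest of its group, and the 3 injured libraries lay close together.

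Other leading risers were genes for enzymes, membrane trafficking, a peptide and a channel. Dhrs9, a short-chain dehydrogenase able to act on retinoids and steroids, had 0.0979, 0.291 and 0.25 CPM in the control and 1.95, 1.18 and 1.76 CPM after injury (2.93 ± 0.43, adjusted p = 4.15e-05). Snx33, a sorting nexin that shapes membranes in endocytosis, had 0.441, 0.436 and 1.7 CPM and 3.44, 5.06 and 7.26 CPM (2.52 ± 0.30, adjusted p = 5.43e-06). Nts, the precursor of the neuropeptide neurotensin, had 0.196, 0.218 and 0.649 CPM and 2.86, 2.41 and 1.35 CPM (2.51 ± 0.40, adjusted p = 1.10e-04). For Dhrs9, Snx33 and Nts every injured library lay above every control library. Kcnj6, which codes for the G protein-gated potassium channel subunit GIRK2, rose from 0.049, 0.363 and 0.35 CPM to 1.56, 1.24 and 1.11 CPM (2.38 ± 0.47, adjusted p = 8.30e-04). Grk1, known as the rhodopsin kinase of photoreceptors, rose by 2.96 ± 0.46 (adjusted p = 7.47e-05) from 2, 4 and 2 counts to 16, 21 and 25. Fosb, an AP-1 factor, rose by 2.6 ± 0.43 (adjusted p = 1.54e-04) with 35, 14 and 40 counts after injury, the lowest of them in the second library. Also among the leading risers were Smim3, a small membrane protein gene, at 3.05 ± 0.31 (adjusted p = 6.89e-07), the gene 4930438A08Rik at 2.42 ± 0.36 (adjusted p = 4.74e-05) and Arc, an activity-regulated gene, at 2.34 ± 0.21 (adjusted p = 1.31e-07).

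Sequence upstream of these genes is shown because several of the leading risers carry, close to their start, the letters that AP-1 factors bind. RefSeq windows of 300 bases (250 before and 50 after a start, GRCm38.p6) were held for 111 of the 162 called higher genes and 24 of the 43 called lower genes. The AP-1 letters TGANTCA, which read alike on both strands, stood in 10.3% of the 136 windows of called higher genes, in 4.75% of the 13063 windows of all genes tested and in 7.81% of the 32851 windows of all genes held. The cAMP response element TGACGTCA, which also reads alike on both strands and does not contain the AP-1 letters, stood in 2.94%, 3.11% and 1.79% of the same windows. For the composite TGATGNAA of ATF4 and C/EBP factors, searched on both strands, the shares were 4.41%, 2.31% and 3.97%, and for the EGR1 letters GCGTGGGCG they were 1.47%, 1.18% and 0.612%. Of the 26 windows of called lower genes, 1 held the AP-1 letters (3.85%), 3 the composite (11.5%) and none the cAMP response element or the EGR1 letters. A match describes letters in a window, not a site in use. Below are the 6 called higher genes with the largest fold changes whose window held the AP-1 letters or the cAMP response element, each given 5′ to 3′ on the strand of the gene with 40 bases on either side of the match, which is in capitals.
Bpifc, chr10:86011865-86011951, minus strand: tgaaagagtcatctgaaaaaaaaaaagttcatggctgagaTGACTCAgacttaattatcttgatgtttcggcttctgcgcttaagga
Upp1, chr11:9117923-9118009, plus strand: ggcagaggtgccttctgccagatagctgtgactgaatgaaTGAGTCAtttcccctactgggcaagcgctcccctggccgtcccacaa
Dhrs9, chr2:69380404-69380490, plus strand: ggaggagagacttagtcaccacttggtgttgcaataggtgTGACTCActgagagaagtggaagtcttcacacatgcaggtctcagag
Nts, chr10:102490579-102490665, minus strand: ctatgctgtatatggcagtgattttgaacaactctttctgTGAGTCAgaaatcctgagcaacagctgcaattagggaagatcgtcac
Dusp1, chr17:26508568-26508655, minus strand: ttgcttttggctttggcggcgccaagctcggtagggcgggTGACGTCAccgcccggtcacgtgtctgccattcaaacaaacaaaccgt
Plaur, chr7:24462374-24462460, plus strand: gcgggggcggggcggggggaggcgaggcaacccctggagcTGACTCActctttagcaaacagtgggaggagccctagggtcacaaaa
The match began 51 bases before the RefSeq start in Bpifc, 45 in Upp1, 18 in Dhrs9, 207 in Nts, 143 in Dusp1 and 69 in Plaur. The first 4 and Plaur hold AP-1 letters, Dusp1 the cAMP response element.

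A pair of entries among the leading risers moved with particular libraries. Mir6236 (ENSMUSG00000098973.1, chromosome 9 from 110281287 to 110281409), annotated as a miRNA gene and read here from total RNA over its whole locus rather than as the mature form, had 24.2, 12.1 and 10.7 CPM in the control and 243, 468 and 40.8 CPM at 16 HPI (3.83 ± 0.71, adjusted p = 4.74e-04). The first and second injured libraries were far above the third. Lars2, a mitochondrial tRNA synthetase gene kept on the residual RNA list, followed the same libraries, with 72.2, 26.6 and 26.1 CPM in the control and 4095, 4692 and 58.9 CPM at 16 HPI. The mature form in RefSeq, with the seed at bases 2 to 8 in capitals, is shown because it names the locus.
mmu-miR-6236: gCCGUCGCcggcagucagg
The identifier ENSMUSG00000089855.1, which the annotation used here did not hold, had 1, 0 and 2 counts in the control and 75, 116 and 2 at 16 HPI. It passed the filter only through injured libraries. The ratio of summed counts was 70.5 (95% interval 23.8 to 345, exact, counting error only). That interval leaves out the spread between libraries, and the third injured library was at the level of the controls. The part of residual RNA in both results was not tested.

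Many of the genes that fell most code for receptors, a channel and signaling proteins, most of them at a low level in the control. Npy2r (ENSMUSG00000028004.12, chromosome 3 from 82538383 to 82548084), a receptor for neuropeptide Y, had 9.84, 3.78 and 3.4 CPM in the control and 2.99, 1.82 and 0.996 CPM at 16 HPI (-1.53 ± 0.21, adjusted p = 2.63e-05). Oprk1 (ENSMUSG00000025905.13, chromosome 1 from 5588466 to 5606131), the kappa opioid receptor, had 2.15, 0.654 and 1.4 CPM and then 0.519, 0.294 and 0.234 CPM (-1.99 ± 0.39, adjusted p = 7.52e-04). Kcnk18 (ENSMUSG00000040901.7, chromosome 19 from 59219214 to 59237374), the background potassium channel TRESK, had 4.65, 1.31 and 1.55 CPM and then 0.909, 0.53 and 0.469 CPM (-1.91 ± 0.32, adjusted p = 1.64e-04). The first batch was the highest of the controls for all 3, and within each batch the injured library was the lower. Gper1, a G protein-coupled estrogen receptor, fell by 2.06 on the log2 scale (SE 0.52, adjusted p = 0.00644) from 1.27, 0.291 and 0.749 CPM to 0.26, 0.177 and 0.117 CPM. Wnt16, a secreted WNT ligand, had 1.66, 1.89 and 1.4 CPM and then 0.26, 0.294 and 0.82 CPM (-1.79 ± 0.38, adjusted p = 0.00155). The groups did not overlap for these 5 genes.

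Brinp3, a neuronal protein known to hold back the cell cycle, had the lowest adjusted p of the 15 leading fallers, and went from 13.9, 11 and 9.54 CPM to 4.55, 4.88 and 4.86 CPM (-1.27 ± 0.12, adjusted p = 1.81e-07). Vcan, the matrix proteoglycan versican, fell from 47.3, 12.6 and 8.59 CPM to 16.4, 5 and 5.27 CPM (-1.28 ± 0.22, adjusted p = 1.85e-04), and its groups overlapped, with the first batch several-fold above the others. Gna14, a G protein subunit of the Gq family, and Rgs5, which speeds the turning-off of G proteins, fell with log2 fold changes of -1.24 ± 0.19 and -1.3 ± 0.28 (adjusted p = 8.04e-05 and 0.00159). Chrm5, the M5 muscarinic receptor (-1.26 ± 0.30, adjusted p = 0.0041), and Bmp4, a bone morphogenetic protein (-1.5 ± 0.43, adjusted p = 0.0136), lost their calls when a library was left out. Without the first control library Chrm5 was at -1.0 (adjusted p = 0.071), and without the first or the third 16 HPI library Bmp4 was at -1.64 and -1.28 (adjusted p = 0.078 and 0.055). Of the 4 leading fallers annotated as noncoding or unverified transcripts, D130004A15Rik was at -1.57 ± 0.30 (adjusted p = 6.84e-04) and Gm10862 at -1.3 ± 0.27 (adjusted p = 0.00119). Gm16334 (-1.47 ± 0.36, adjusted p = 0.00453) lost its call without the third control library (-1.02, adjusted p = 0.10), and Gm43374 (-1.37 ± 0.36, adjusted p = 0.00843) without the third 16 HPI library (-0.91, adjusted p = 0.11). Gm10862 is annotated as sense intronic, within another gene, and whether the counting used strand is not given in the sources used here.

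**Figure D2:**
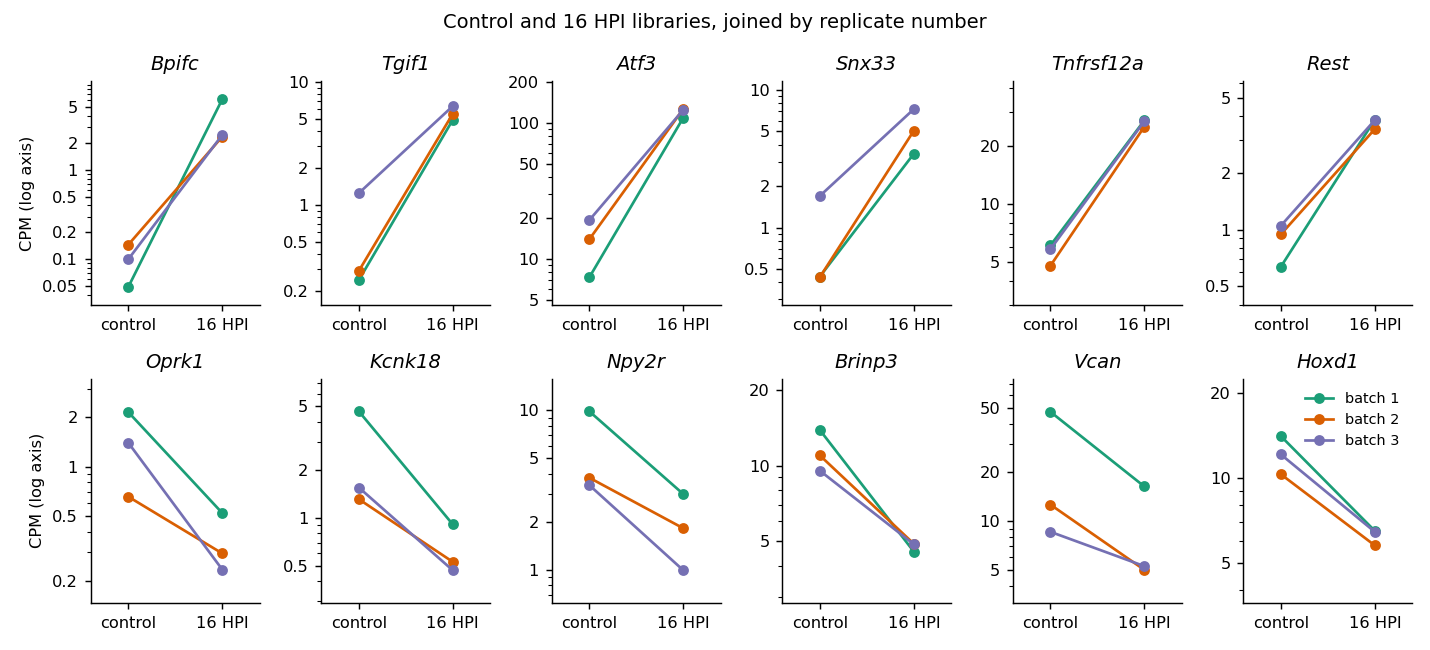
CPM in the 3 control and 3 16 HPI libraries on a log axis, 1 panel a gene, with lines that join the libraries of the same replicate number (batch). All 3 lines go up in the 6 panels of the top row and down in the 6 panels of the bottom row, and Vcan and Kcnk18 show how far batch 1 stood from the others.

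Each list count that follows is to be read beside the shares of all genes tested, of which 10.7% rose and 11.5% fell. Of the 31 lists, AP-1 factors had the largest share of risers. Of 12 AP-1 and small Maf genes tested, out of 15 listed, 11 rose and none fell, with a median log2 fold change of 0.82 and 5 called higher. Atf3 and Fosb, given above, belong to this list. Fosl2, the FOS-related factor FRA2, rose from 8.03, 8.5 and 8.99 CPM to 27.8, 30.2 and 35.8 CPM (1.85 ± 0.11, adjusted p = 1.69e-09). Junb rose from 1.71, 1.6 and 2.35 CPM to 6.69, 3.53 and 5.68 CPM (1.49 ± 0.21, adjusted p = 2.68e-05), and Fos from 1.03, 1.74 and 0.5 CPM to 3.83, 3.24 and 3.75 CPM (1.79 ± 0.34, adjusted p = 5.71e-04). The injured libraries lay above the controls for all 3. Jun, the AP-1 partner most studied in nerve injury, rose by 0.80 ± 0.09 (adjusted p = 2.98e-06) from 47.1, 30.1 and 39.8 CPM to 75.7, 63.3 and 66.3 CPM, short of 2-fold. When the batch term was left out 6 of the 12 rose, and with each library left out in turn 8 or 9 did.

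Among 16 C/EBP and stress-related bZIP genes tested of 18 listed, 11 rose and 2 fell (median 0.38), and with no batch term 4 rose and none fell. Ddit3, the CHOP factor of the unfolded protein response, rose from 38.2, 56.5 and 73.2 CPM to 96.1, 131 and 136 CPM (1.11 ± 0.11, adjusted p = 5.05e-07). Creb3l2, a membrane-tethered factor of secretory cells, had 1.52, 1.16 and 2.3 CPM and then 3.38, 2.82 and 3.57 CPM (0.93 ± 0.19, adjusted p = 0.00138), and Crem, a factor of cAMP signaling, rose by 0.84 ± 0.14 (adjusted p = 1.40e-04). Cebpd was at 1.25 ± 0.34, adjusted p = 0.011, and lost its call without the second control library (1.07, adjusted p = 0.056) or without the first 16 HPI library (0.97, adjusted p = 0.073). The 2 that fell were Dbp, a circadian factor, at -0.48 and Creb3l1, a relative of Creb3l2, at -0.39. Without the second 16 HPI library 1 of them did.

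Of 18 immediate early and activity genes tested of 26 listed, 13 rose and 1 fell (median 0.69), and with no batch term 8 rose and none fell. Arc had 1.13, 0.8 and 0.999 CPM in the control and 4.48, 5 and 5.86 CPM at 16 HPI. Ier5, a regulator of heat shock factor, rose from 0.93, 0.945 and 0.749 CPM to 2.47, 2.29 and 3.75 CPM (1.69 ± 0.21, adjusted p = 8.49e-06). Arid5a, an RNA-binding protein that stabilizes inflammatory transcripts, rose from 2.25, 6.69 and 8.49 CPM to 14.2, 18.5 and 20.1 CPM (1.63 ± 0.23, adjusted p = 2.54e-05). Btg2, an antiproliferative gene that is also a p53 target, rose by 1.4 ± 0.21 (adjusted p = 5.29e-05), and Egr1, a zinc finger factor, by 1.0 ± 0.23 (adjusted p = 0.00333). The single member that fell was Nptx2, a neuronal pentraxin of synapses, at -0.22 (adjusted p = 0.00935), and it did not pass without the first 16 HPI library (0 of 18 fell).

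Rest codes for a zinc finger repressor that keeps neuronal genes off in other cells. It had 0.636, 0.945 and 1.05 CPM in the control and 3.83, 3.41 and 3.81 CPM at 16 HPI (2.06 ± 0.26, adjusted p = 7.87e-06), with no overlap. Of 19 genes for REST and its corepressors, Rest alone rose (2 without the second 16 HPI library) and 2 fell, Smarca4, a chromatin remodeler, at -0.21 and Ehmt2, a histone methyltransferase, at -0.19. Of these 2, 1 fell without any one control library or the first 16 HPI library and none without the third. Sox11, a neuronal development factor, rose from 109, 111 and 128 CPM to 192, 195 and 216 CPM (0.77 ± 0.07, adjusted p = 3.03e-07).

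Factors that set the types of sensory neuron moved in both directions, with 4 of 25 higher and 6 lower (median -0.08), of which the fit with no batch term left none higher and 1 lower. Runx1, which directs the nociceptor lineage, rose from 2.4, 1.24 and 1.75 CPM to 5, 3.71 and 4.8 CPM (1.35 ± 0.19, adjusted p = 3.61e-05). Foxp2 rose by 1.79 ± 0.32 (adjusted p = 3.11e-04), and by 2.72 without the third control library. Hoxd1, a homeobox gene of nociceptors, fell from 14.1, 10.3 and 12.1 CPM to 6.49, 5.77 and 6.44 CPM (-0.98 ± 0.10, adjusted p = 7.89e-07), and Etv1, an ETS factor of proprioceptors, fell with a log2 fold change of -0.47 ± 0.06 (adjusted p = 2.00e-05).

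**Figure D3:**
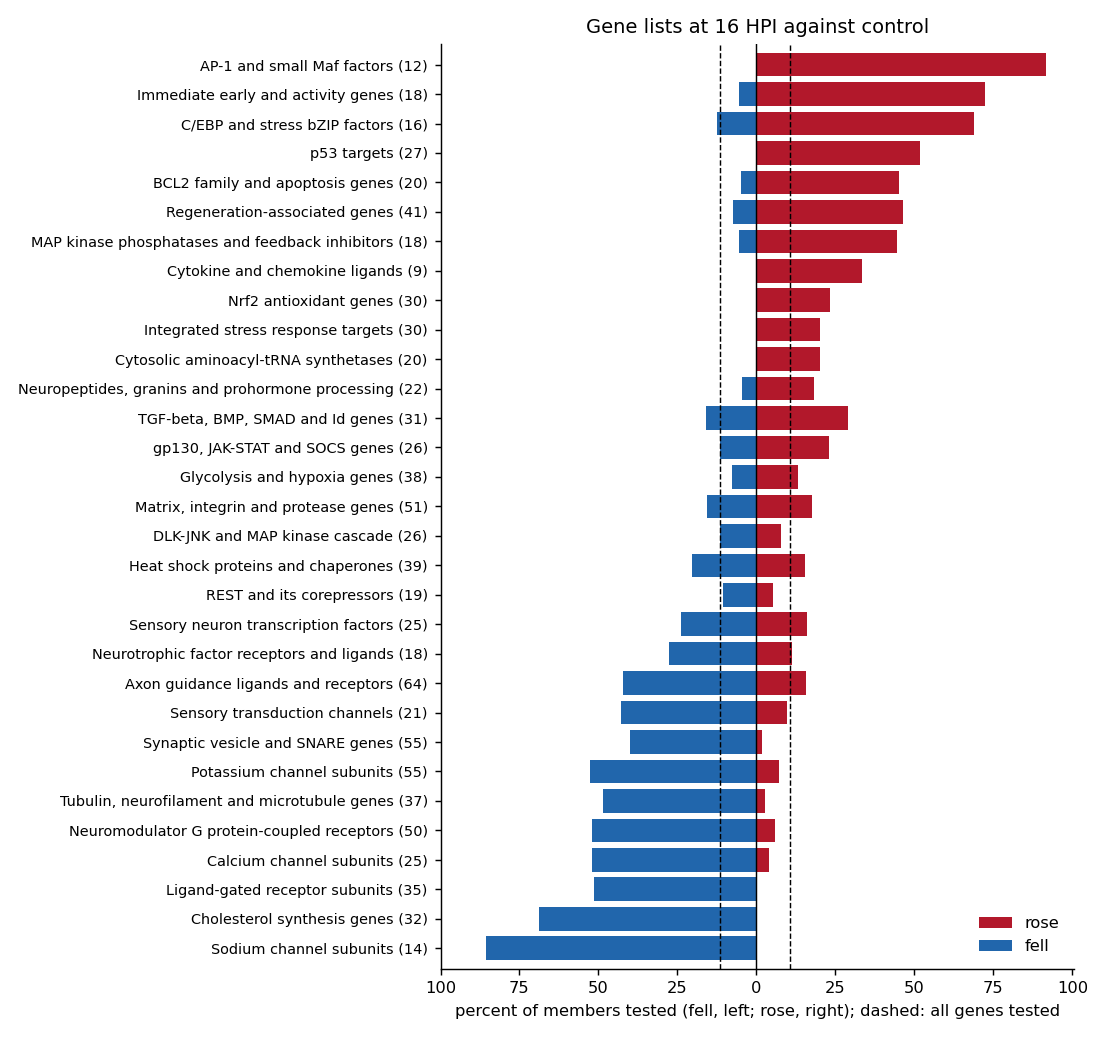
Percent of the tested members of each of the 31 gene lists that rose (red, right) or fell (blue, left) at 16 HPI against control, with the number tested in parentheses and dashed lines at the shares of all 13771 genes, 10.7% and 11.5%. AP-1, immediate early and C/EBP genes stand at the top, and sodium channel, cholesterol synthesis and ligand-gated receptor genes at the bottom.

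Some of the genes that damp MAP kinase signaling rose as well. Of 18 dual specificity phosphatases and other feedback inhibitors tested of 20 listed, 8 rose and 1 fell (median 0.43), against 4 and none with no batch term. Dusp4, a nuclear phosphatase of ERK and JNK, rose from 3.08, 3.49 and 2.7 CPM to 14.5, 10.4 and 12.5 CPM (2.01 ± 0.19, adjusted p = 2.69e-07). Dusp1, a phosphatase of p38 and JNK, rose from 8.08, 11.3 and 10.9 CPM to 29.9, 32.7 and 36.8 CPM (1.7 ± 0.11, adjusted p = 4.11e-09). Dusp5, an ERK phosphatase, rose from 2.59, 4.43 and 4.15 CPM to 7.92, 10.4 and 9.84 CPM (1.32 ± 0.18, adjusted p = 2.60e-05). All 3 showed no overlap. Dusp10 was the member that fell (-0.30 ± 0.09, adjusted p = 0.0238), and it did not pass without the first or second control library or without the first or second 16 HPI library. The kinases themselves moved little. Of 26 genes of the DLK-JNK and related cascades, 2 rose and 3 fell (median -0.06; 1 and 1 with no batch term), with Map3k11, the mixed lineage kinase MLK3, at 0.36 ± 0.06 and Map3k5, the kinase ASK1, at 0.47 ± 0.10 as the risers (adjusted p = 1.53e-04 and 0.00133). The 3 that fell were Mycbp2, the ubiquitin ligase known to restrain DLK, at -0.32 ± 0.07, Map3k12, which codes for DLK itself, at -0.21 ± 0.06, and Mapk3, the kinase ERK1, at -0.15 ± 0.05 (adjusted p = 0.00155, 0.012 and 0.0448). Without the third control library 1 member fell. Mapk3 did not pass without the second or the third library of either group, and Map3k12 without the third control or the first 16 HPI library.

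Stress and death genes rose in part. Of 30 targets of the integrated stress response tested of 32 listed, 6 rose and none fell (median 0.07), and with no batch term 3 rose. The highest was Ppp1r15a, the GADD34 subunit that reverses eIF2α phosphorylation, which went from 37.3, 74.3 and 87.6 CPM to 140.1, 179 and 188 CPM (1.39 ± 0.12, adjusted p = 1.34e-07), followed by Ddit3. Without the first or second control library or the first 16 HPI library 1 of the 30 fell. The amino acid synthesis and transport targets Asns, Psat1 and Slc7a11 did not pass, at 0.01, 0.04 and -0.16, and were named after their values were seen. Of 20 cytosolic aminoacyl-tRNA synthetases 4 rose, Rars (0.26), Sars (0.23), Tars (0.19) and Aars (0.14), all with overlapping groups, and none did without the batch term. Aars passed with a library left out only where that was the third 16 HPI one. Of 39 heat shock and chaperone genes 6 rose and 8 fell (median -0.06). The endoplasmic reticulum chaperone genes Dnajb9 and Hspa5, which codes for BiP, rose by 0.71 ± 0.08 and 0.52 ± 0.06 (adjusted p = 1.65e-06 and 1.86e-06), and the small heat shock genes Hspb1 and Hspb8 by 0.90 ± 0.19 and 0.58 ± 0.07 (adjusted p = 0.00146 and 6.43e-06). The count of 8 that fell was 2 without the first control library, 5 without the second and 4 without the first 16 HPI library. Without the batch term 2 of the 39 rose and none fell.

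Of 27 p53 targets tested of 30 listed, 14 rose and none fell (median 0.25). Trp53inp1, a p53-induced nuclear protein, rose from 20.2, 30.7 and 37.6 CPM to 63.1, 60.3 and 76.7 CPM (1.18 ± 0.11, adjusted p = 3.28e-07). Phlda3, which restrains AKT, rose from 4.85, 5.74 and 7.74 CPM to 8.64, 9.88 and 15.5 CPM (0.86 ± 0.12, adjusted p = 4.03e-05). Bbc3, the death gene PUMA, rose from 23.2, 27 and 42.2 CPM to 43.8, 51.9 and 68.6 CPM (0.82 ± 0.11, adjusted p = 1.09e-05). Cdkn1a, the cell cycle inhibitor p21, was at 0.34 ± 0.11, adjusted p = 0.0394, and did not pass without any one of the libraries except the third 16 HPI one, with adjusted p between 0.062 and 0.20. The count of 14 was 9 without the first 16 HPI library and 4 without the batch term, and without the third 16 HPI library 1 fell. Among 20 BCL2 family and apoptosis genes 9 rose and 1 fell (median 0.22), and with no batch term 3 rose and none fell. They included the death-promoting Bmf, which rose from 0.734, 1.02 and 1.3 CPM to 2.08, 1.59 and 2.58 CPM (1.03 ± 0.22, adjusted p = 0.00187), and the protective Bcl2, which rose from 5.48, 6.76 and 5.84 CPM to 9.03, 9.47 and 11.8 CPM (0.73 ± 0.11, adjusted p = 4.34e-05). The member that fell was Htra2, a mitochondrial protease, at -0.31 (adjusted p = 0.0393), which passed only with all libraries in or without the first 16 HPI library. Without that library 2 members fell, and without the second or the third control or the second 16 HPI library none did. Of 30 antioxidant genes under Nrf2, 7 rose (4 with no batch term) and none fell (median 0.03), led by Hmox1, heme oxygenase, at 0.92 ± 0.10 and Srxn1, sulfiredoxin, at 0.91 ± 0.07 (adjusted p = 2.60e-06 and 1.45e-08). The 7 were 4 without the third control library, and without the second control library 1 fell.

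Of 41 regeneration-associated genes tested of 50 listed, 19 rose and 3 fell (median 0.20). Without the first 16 HPI library the median was 0.11 and 14 rose, and with no batch term 8 rose and none fell. The list came from nerve injury work and holds Atf3, Jun and Rest, which the study had itself pointed to in these libraries, so that its count is no independent evidence. Tnfrsf12a, the receptor Fn14 of the cytokine TWEAK, rose from 6.12, 4.8 and 5.84 CPM to 27.2, 25.2 and 26.9 CPM (2.21 ± 0.12, adjusted p = 5.48e-10). Plaur, the urokinase receptor, rose from 0.734, 0.218 and 0.0999 CPM to 1.56, 0.765 and 1.17 CPM (1.69 ± 0.40, adjusted p = 0.00368), and by 2.70 without the first control library. Sema6a, a membrane semaphorin, rose from 12.7, 19.9 and 28.9 CPM to 45.6, 44.2 and 56.9 CPM (1.26 ± 0.13, adjusted p = 1.06e-06). All injured libraries lay above all controls in these 3 genes. Gap43, the growth cone protein often used to mark regrowing axons, was at -0.04 ± 0.06, adjusted p = 0.7, with 1257, 1076 and 1142 CPM in the control and 1062, 1261 and 1113 CPM at 16 HPI. The neuropeptide gene Gal was at -0.72 ± 0.32, adjusted p = 0.12, at 1.47, 0.654 and 0.649 CPM and 0.714, 0.471 and 0.469 CPM. The 3 that fell were the tubulin gene Tubb2b (-0.36), the calcium channel gene Cacna2d1 (-0.32) and the galectin gene Lgals1 (-0.23), of which Lgals1 (adjusted p = 0.039) passed with a library left out only where that was the second control one.

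Genes of secreted signals and their receptors moved in both directions. Within the gp130 and JAK-STAT list, 6 of 26 rose and 3 fell (median 0.14), against 3 and 1 with no batch term. The share that fell, 11.5%, was that of all genes, and 23.1% rose beside 10.7% of all genes. Il6ra, the interleukin 6 receptor, rose from 0.294, 0.654 and 0.599 CPM to 1.62, 1.53 and 2.34 CPM (1.85 ± 0.29, adjusted p = 9.57e-05), whereas Lifr, the receptor of leukemia inhibitory factor, fell from 1371, 1143 and 1064 CPM to 887, 821 and 749 CPM (-0.56 ± 0.06, adjusted p = 2.44e-06), and so did Il6st, the shared gp130 subunit (-0.31 ± 0.05, adjusted p = 1.42e-04). The feedback inhibitor Cish rose by 1.35 ± 0.28 (adjusted p = 0.00146). Its relative Socs3 (1.41 ± 0.43, adjusted p = 0.0221) rested on the first 16 HPI library, at 3.51, 0.765 and 1.35 CPM in the 3 libraries, and lost its call without that library (1.06, adjusted p = 0.20), without the first control library (1.19, adjusted p = 0.16) and without the third (1.49, adjusted p = 0.050). In the TGF-β and BMP list 9 of 31 rose and 5 fell (median 0.07), and 3 rose and none fell with no batch term. Those that rose included Tgif1 and 2 further brakes on SMAD signaling, Smad7 (1.07 ± 0.25, adjusted p = 0.00309) and Skil (0.87 ± 0.11, adjusted p = 1.08e-05). Gdf11, a ligand of the family, and Acvr2a, an activin receptor, fell with log2 fold changes of -0.64 ± 0.07 and -0.45 ± 0.08 (adjusted p = 2.44e-06 and 2.38e-04). Of 36 cytokine and chemokine ligands listed only 9 passed the filter, and of these 3 rose. Csf1, the growth factor of macrophages, rose from 8.13, 5.09 and 6.39 CPM to 13.4, 9.36 and 11 CPM (0.76 ± 0.12, adjusted p = 1.32e-04), Areg, an EGF receptor ligand, by 0.81 ± 0.19 (adjusted p = 0.00291), and Hbegf, another such ligand, by 0.64 ± 0.22 (adjusted p = 0.041). Hbegf passed with a library left out only where that was the second 16 HPI one, and without the batch term none of the 9 rose.

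The lists of channels and receptors held many falling members, nearly all of which fell by less than 2-fold. Of the 14 sodium channel genes, all of them tested, 12 fell and none rose (median -0.44), beside 11.5% of all genes. Scn1a had 69, 66 and 93.7 CPM in the control and 40.5, 38.8 and 60.1 CPM at 16 HPI (-0.74 ± 0.07, adjusted p = 2.10e-07). Scn8a, found at nodes of Ranvier, had 109.7, 129 and 139.6 CPM and then 66, 80 and 89.6 CPM (-0.71 ± 0.06, adjusted p = 4.58e-08). Scn9a, which codes for the pain channel Nav1.7, had 613, 581 and 602 CPM and then 433, 376 and 424 CPM (-0.57 ± 0.06, adjusted p = 8.22e-07). Scn10a, the nociceptor channel Nav1.8, fell with a log2 fold change of -0.49 ± 0.06 (adjusted p = 6.87e-06), and the auxiliary subunit gene Scn4b with -0.87 ± 0.19 (adjusted p = 0.00177). The control and injured libraries did not overlap for any of these 5 genes. With a library left out 11 or 12 of the 14 fell, and without the batch term 8 did.

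Of 55 potassium channel genes tested of 72 listed, 29 fell and 4 rose (median -0.30). Below Kcnk18 came Kcnj3, which codes for GIRK1, from 12.3, 5.45 and 5.69 CPM to 5.19, 2.82 and 2.52 CPM (-1.15 ± 0.14, adjusted p = 8.20e-06), and Kcnd2, the A-type channel Kv4.2, from 9.74, 8.14 and 6.79 CPM to 3.77, 4.3 and 3.63 CPM (-1.09 ± 0.14, adjusted p = 1.06e-05). The risers were Kcnj6, Kcnc2, the fast channel Kv3.2, at 0.72 ± 0.13, Kcnk1, the channel TWIK1, at 0.41 ± 0.12, and Hcn4, a pacemaker channel, at 0.40 ± 0.09 (adjusted p = 3.79e-04, 0.0189 and 0.00211). Kcnk1 did not pass without the second or the third control library or the third 16 HPI library. Thus Kcnj3 and Kcnj6, whose products join in one channel, moved in opposite directions. Of 25 calcium channel genes 13 fell and 1 rose (median -0.25), with Cacng8 (-0.81 ± 0.16, adjusted p = 5.92e-04), a partner of AMPA receptors, and Ryr2 (-0.68 ± 0.09, adjusted p = 1.34e-05), a calcium release channel, the lowest, and Cacng3 the riser (0.55 ± 0.13, adjusted p = 0.00416). A fit with no batch term left 11 of the 55 potassium channel and 3 of the 25 calcium channel genes lower.

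In the sensory transduction list 9 of 21 fell and 2 rose (median -0.25), and with no batch term 5 fell and none rose. Trpm8, the cold receptor, fell from 44.8, 42.7 and 36.4 CPM to 26.6, 28.1 and 18.5 CPM (-0.78 ± 0.11, adjusted p = 2.26e-05). Asic3, an acid-sensing channel, had 76, 81.7 and 98.9 CPM and then 46.4, 50.4 and 55.4 CPM (-0.77 ± 0.07, adjusted p = 2.66e-07), and Trpm3, a heat channel, 57.3, 52.5 and 69.5 CPM and then 35.8, 32.6 and 43.2 CPM (-0.71 ± 0.06, adjusted p = 1.76e-07). These 3 showed no overlap. Trpv1, the capsaicin receptor, was at -0.71 ± 0.23, adjusted p = 0.0273, but its level followed the batch, with 4.55, 0.291 and 1.1 CPM in the control and 2.34, 0.235 and 0.879 CPM at 16 HPI, and it did not pass without the first control library (-0.42, adjusted p = 0.45) or the first 16 HPI library (-0.60, adjusted p = 0.24). The mechanosensitive channel gene Piezo1 rose by 0.55 ± 0.12 (adjusted p = 0.00282), and so did P2rx5, an ATP-gated channel, by 0.69 ± 0.22 (adjusted p = 0.0305). The count of 2 risers was 1 without the second or the third control library or the first or second 16 HPI library.

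Receptors for transmitters and modulators were among the falling genes too. Of 35 ligand-gated receptor subunits tested of 45 listed, 18 fell and none rose (median -0.26). Grin3a, an NMDA receptor subunit, fell from 17.9, 15.4 and 14.9 CPM to 11.6, 7.88 and 7.91 CPM (-0.84 ± 0.10, adjusted p = 6.43e-06), and Gabrb2, a GABA-A receptor subunit, from 2.1, 2.83 and 2.15 CPM to 0.844, 1.47 and 1.35 CPM (-0.97 ± 0.24, adjusted p = 0.00541). Gria1, an AMPA receptor subunit, was at -0.96 ± 0.19, adjusted p = 8.47e-04, and at -0.64 without the first control library. Without the batch term 1 of the 35 fell, and without the second or the third 16 HPI library 1 rose. Of 50 G protein-coupled receptors for neuromodulators tested of 83 listed, 26 fell, 5 of them by more than 2-fold, and 3 rose (median -0.30). Beside Gper1, Oprk1 and Npy2r, Mrgprx1, an itch receptor, fell from 8.86, 2.98 and 8.59 CPM to 3.7, 2.06 and 3.98 CPM (-1.07 ± 0.17, adjusted p = 8.61e-05), and Chrm1, the M1 muscarinic receptor, was at -1.21 ± 0.34, adjusted p = 0.0127, or -1.02 with an adjusted p of 0.10 without the first 16 HPI library. Adra1b, an α1 adrenergic receptor, rose from 0.441, 0.872 and 0.849 CPM to 1.82, 2.35 and 2.05 CPM (1.51 ± 0.31, adjusted p = 0.00129). The 2 other risers were Calcrl, the receptor that binds CGRP with its partner protein, and Tacr1, the substance P receptor, at 0.44 ± 0.15 and 0.68 ± 0.19 (adjusted p = 0.0385 and 0.0121). Neither passed without the third 16 HPI library, which left 1 riser, Calcrl also failed without the first or the third control or the first 16 HPI library, and Tacr1 without the second 16 HPI library. With no batch term 4 of the 50 fell.

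**Figure D4:**
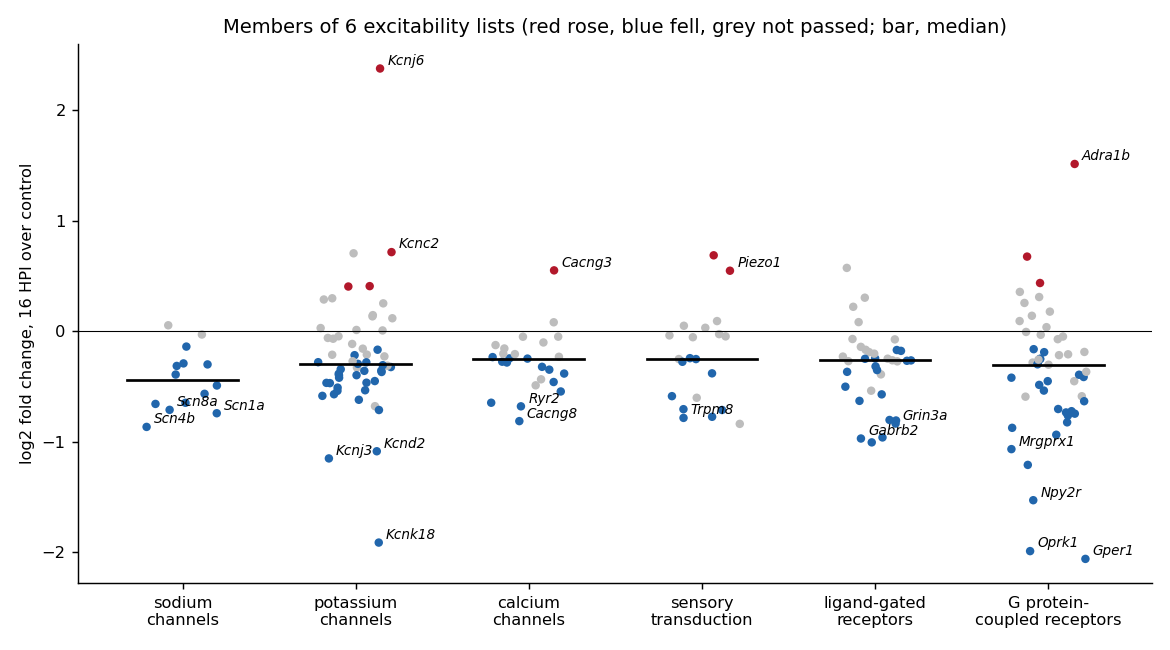
Log2 fold change at 16 HPI over control of each tested member of 6 lists of channels and receptors, with members that rose in red, those that fell in blue, those that did not pass in grey, and a bar at the median of each list. All 6 medians lie below 0, between -0.44 and -0.25, while Kcnj6 and Adra1b lie above 1.

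Peptide genes had about the background share of changes. Of 22 neuropeptide, granin and prohormone processing genes tested of 33 listed, 4 rose and 1 fell (median 0.05), beside 22.2% of all genes that changed either way, and with no batch term 1 rose and none fell. Apart from Nts the risers were Calcb, a CGRP gene, Vgf, a neurotrophin-induced granin, and Pam, the peptide amidating enzyme, at 0.33, 0.23 and 0.16, and 2 of the 22 rose without the third control or the third 16 HPI library. Calcb did not pass without the first or the third control or the third 16 HPI library, and Pam without the first control or the first 16 HPI library. Vgf passed only with all libraries in or without the first control library, where it was at 0.35, or the first 16 HPI library. The 1 that fell became 2 without the third control or the second 16 HPI library. Pcsk2, a prohormone convertase, fell (-0.34 ± 0.06, adjusted p = 1.87e-04). Calca, the main CGRP gene of nociceptors, was at -0.18 ± 0.09, adjusted p = 0.15, with 489, 136 and 128 CPM in the control and 403, 112 and 137 CPM at 16 HPI, where the first batch was several-fold above the others in both groups. Of 18 neurotrophic factor receptors and ligands 2 rose and 5 fell (median -0.12), and with no batch term 1 rose and none fell. Kit, the stem cell factor receptor, fell from 25.8, 18.6 and 18.1 CPM to 10.9, 14.7 and 9.43 CPM (-0.84 ± 0.15, adjusted p = 2.23e-04), Ntrk3, the neurotrophin 3 receptor, fell (-0.73 ± 0.15, adjusted p = 0.00142), and Bdnf, a neurotrophin, rose (0.45 ± 0.09, adjusted p = 9.67e-04). The 5 that fell were 3 without the third 16 HPI library.

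Some genes of the release machinery and of the cytoskeleton fell, most by small amounts. Of 55 synaptic vesicle and SNARE genes tested of 57 listed, 22 fell and 1 rose (median -0.12). Syt6, a synaptotagmin, fell from 19.7, 16.9 and 17.7 CPM to 8.38, 8.94 and 13.8 CPM (-0.83 ± 0.13, adjusted p = 9.77e-05), and Pclo, which codes for the active zone scaffold piccolo, from 165, 212 and 209 CPM to 128, 126 and 129 CPM (-0.62 ± 0.10, adjusted p = 1.41e-04). The riser was Stx3, a syntaxin (0.28 ± 0.10, adjusted p = 0.0425), which did not pass with any one library left out. Of 37 tubulin, neurofilament and microtubule genes tested of 39 listed, 18 fell and 1 rose (median -0.16). Map1b, a microtubule protein of growing axons, fell from 5483, 6298 and 6222 CPM to 4402, 4591 and 4569 CPM (-0.43 ± 0.06, adjusted p = 3.93e-05), and Tubb3, the neuronal tubulin, from 3131, 3058 and 2605 CPM to 2246, 2488 and 2017 CPM (-0.40 ± 0.05, adjusted p = 1.09e-05). Stmn4, a tubulin-binding stathmin, rose (0.50 ± 0.10, adjusted p = 0.00114), and it was 1 of 2 risers without the first or the third control or the second or the third 16 HPI library. In the fit with no batch term 6 of the 55 and 3 of the 37 fell. In whole cultures, fewer neurons and less RNA of a kind in each neuron cannot be told apart, and 4 of the 12 sensory neuron markers fell, Scn9a, Elavl4 (-0.41), Tubb3 and Rbfox3 (-0.29), while Uchl1, Prph and Pou4f1 were at 0.03, -0.01 and -0.01 and did not pass.

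Guidance genes moved in both directions. Of 64 axon guidance ligands and receptors tested of 77 listed, 27 fell and 10 rose (median -0.16), and with no batch term 7 fell and 3 rose. Among the risers, Slit2, a secreted repellent, had 11.8, 8.94 and 10.8 CPM in the control and 23.6, 18.9 and 20.4 CPM at 16 HPI (0.98 ± 0.12, adjusted p = 9.23e-06), Unc5d, a netrin receptor, 12, 8.21 and 3.4 CPM and 26.2, 18.1 and 9.26 CPM (1.19 ± 0.10, adjusted p = 5.75e-08), and Sema6a is given above. Plxna2, a semaphorin receptor, fell from 282, 187 and 235 CPM to 152, 124 and 144 CPM (-0.75 ± 0.07, adjusted p = 2.92e-07), and the secreted semaphorin gene Sema3a from 12.1, 5.6 and 5.84 CPM to 5.78, 3.18 and 3.81 CPM (-0.87 ± 0.13, adjusted p = 3.77e-05). Unc5d and Sema3a differed between batches, and within each batch the injured library was the higher for Unc5d and the lower for Sema3a. Of 51 matrix, integrin and protease genes tested of 66 listed, 9 rose and 8 fell (median -0.05). The integrin subunit genes Itgb5 and Itga5, the fibronectin receptor subunit, rose, the former from 0.245, 0.363 and 1.8 CPM to 2.6, 2.94 and 3.4 CPM (1.85 ± 0.36, adjusted p = 6.57e-04), or by 2.99 without the third control library, the latter from 0.734, 1.38 and 1.15 CPM to 2.34, 2.47 and 3.87 CPM (1.44 ± 0.29, adjusted p = 0.00112). Serpinb1a, a protease inhibitor, fell (-0.88 ± 0.15, adjusted p = 1.81e-04). The 8 that fell were 5 without the second control library and 4 without the third 16 HPI library, and without the batch term none of the 51 rose and 2 fell. The fibroblast marker Dcn rose beside these genes, and the part of fibroblasts in the matrix counts was not tested.

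Most genes of lipid synthesis fell, by small amounts. Of 32 genes of cholesterol and fatty acid synthesis and uptake, 22 fell and none rose (median -0.22), beside 11.5% of all genes that fell. Srebf1, the factor that drives fatty acid synthesis, fell from 44.4, 45.3 and 49.5 CPM to 23.2, 28.1 and 37.2 CPM (-0.69 ± 0.08, adjusted p = 5.71e-06). Fasn, fatty acid synthase, fell from 1409, 1649 and 1686 CPM to 934, 1175 and 1272 CPM (-0.52 ± 0.06, adjusted p = 2.01e-06). For both genes, and for 6 of the 32 in all, every injured library lay below every control library, beside 6.45% of all genes tested. The fit with no batch term had 6 lower, and with a library left out 15 to 20 did. Of 38 glycolysis and hypoxia genes 5 rose and 3 fell (median -0.03), against 1 and none with no batch term. With the batch term 13.2% rose and 7.89% fell, near the 10.7% and 11.5% of all genes. Slc2a1, the glucose transporter GLUT1, rose from 37.1, 36.3 and 43.8 CPM to 63, 54.1 and 73.1 CPM (0.67 ± 0.09, adjusted p = 1.50e-05). Ndrg1, a hypoxia-induced gene, rose by 0.81 ± 0.12 (adjusted p = 6.37e-05). The 5 were 3 without the first control or without the first or the third 16 HPI library, and the 3 that fell were 1 without the second 16 HPI library.

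The same libraries at 16 HPI were then compared directly with those at 8 HPI and at 24 HPI, to see which differences belonged to that time. Against 8 HPI, 110 genes were called higher (0.799%) and 19 lower (0.138%), and against 24 HPI 57 were called higher (0.414%) and 13 lower (0.0944%). At an adjusted p under 0.05 alone, 7.3% of genes were higher and 7.86% lower than at 8 HPI (15.2% in all), and 6.22% were higher and 3.59% lower than at 24 HPI (9.82% in all). With upper-quartile scaling the split against 8 HPI turned to 1370 higher and 718 lower from 1005 and 1083. Rest was higher at 16 HPI than at both, with log2 differences of 2.43 ± 0.28, adjusted p = 1.19e-05 from 8 HPI and 1.81 ± 0.24, adjusted p = 6.22e-05 from 24 HPI. Tgif1 likewise differed by 2.14 ± 0.31, adjusted p = 9.40e-05 from 8 HPI and by 1.72 ± 0.27, adjusted p = 3.46e-04 from 24 HPI, and Tnfrsf12a by 1.46 ± 0.12, adjusted p = 3.07e-07 and by 1.07 ± 0.11, adjusted p = 4.80e-06. Il6ra was higher too (1.31 ± 0.28, adjusted p = 0.00309 from 8 HPI, 1.74 ± 0.28, adjusted p = 3.67e-04 from 24 HPI). Atf3 differed from 8 HPI by 0.87 ± 0.18, adjusted p = 0.00252 and from 24 HPI by 1.97 ± 0.19, adjusted p = 2.04e-06, and Fosl2 by 0.36 ± 0.10, adjusted p = 0.0203 and by 1.37 ± 0.11, adjusted p = 3.03e-07. All 6 of these genes thus stood higher at 16 HPI than at either neighboring time.

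Other risers followed other courses. Fosb was already above the control at 1 HPI (2.83 ± 0.41, adjusted p = 0.00415). Its differences at 16 HPI from 8 HPI and from 24 HPI did not pass. Fos and Egr1 were lower at 16 than at 8 HPI (-1.0 ± 0.24, adjusted p = 0.00748 for Fos, -1.14 ± 0.19, adjusted p = 3.32e-04 for Egr1). Dusp1 was above 24 HPI by 1.24 ± 0.11, adjusted p = 6.11e-07 and Ddit3 by 1.04 ± 0.11, adjusted p = 5.56e-06, and their differences from 8 HPI, 0.06 and 0.05, did not pass. Bpifc, Nts, Slit2 and Unc5d were above 8 HPI, by 2.89 ± 0.31, adjusted p = 6.41e-06, by 2.01 ± 0.39, adjusted p = 0.00145, by 1.03 ± 0.13, adjusted p = 2.18e-05 and by 1.01 ± 0.10, adjusted p = 1.82e-06, and their differences from 24 HPI did not pass. Of 27 p53 targets 6 were higher and 3 lower at 16 than at 24 HPI, beside 6.22% and 3.59% of all genes. Phlda3 was among the 3 lower (-0.81 ± 0.11, adjusted p = 5.08e-05). Among AP-1 genes 4 were higher and 3 lower at 16 than at 8 HPI, and 7 higher and none lower than at 24 HPI.

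Channel genes fell further after 8 HPI. Of the 14 sodium channel genes 11 were lower at 16 than at 8 HPI and none higher (median -0.28), beside 7.86% of all genes lower, and 3 were lower at 16 than at 24 HPI. Of the potassium channel genes 19 of 55 were lower and 3 higher than at 8 HPI. Npy2r was lower at 16 HPI than at both times (-0.89 ± 0.24, adjusted p = 0.013 from 8 HPI, -0.88 ± 0.23, adjusted p = 0.0162 from 24 HPI), as were Brinp3 (-0.68 ± 0.13, adjusted p = 9.91e-04 and -0.77 ± 0.12, adjusted p = 2.78e-04) and Hoxd1 (-0.45 ± 0.11, adjusted p = 0.00724 and -0.58 ± 0.10, adjusted p = 9.99e-04). The lipid synthesis genes had the largest share of members lower than at 8 HPI among the 31 lists, with 28 of 32 lower at 16 than at 8 HPI and none higher (median -0.30), and against 24 HPI 5 were higher and 1 lower (median 0.07). Among the integrated stress response targets 7 of 30 were lower and 1 higher than at 8 HPI, and 13 were higher and none lower than at 24 HPI.

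**Figure D5:**
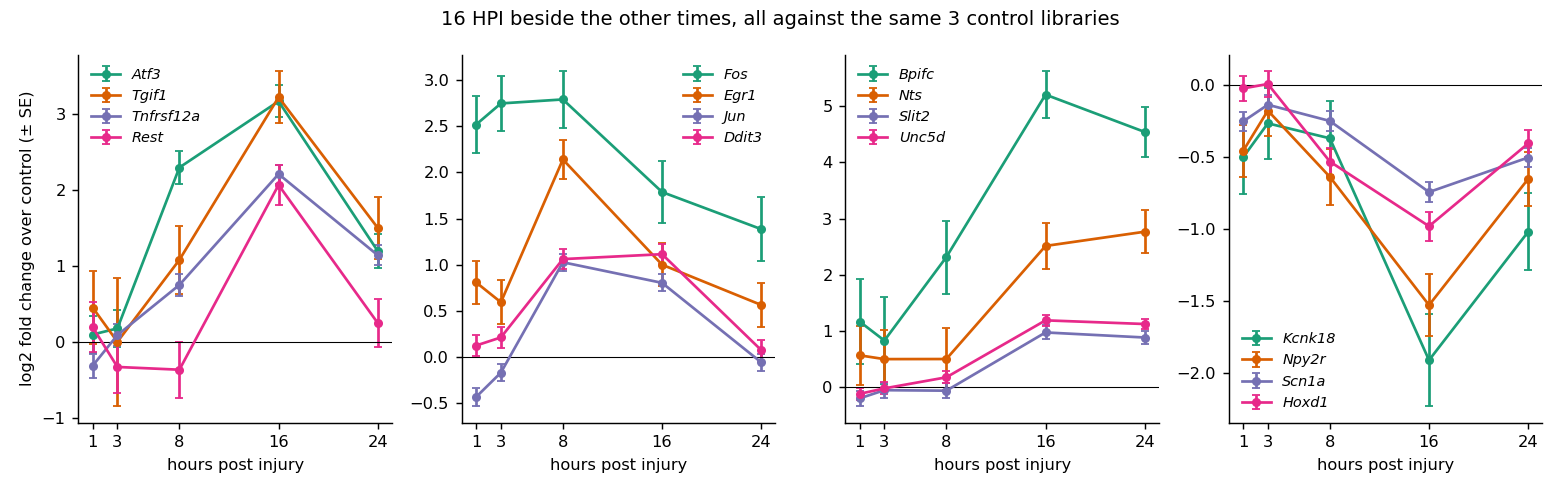
Log2 fold change over the 3 control libraries (± SE) at 1, 3, 8, 16 and 24 HPI for 16 genes in 4 panels, all times measured against the same controls. Rest and Tgif1 are highest at 16 HPI, Egr1 peaks at 8 HPI, Bpifc and Slit2 stay up at 24 HPI, and Kcnk18 and Npy2r are lowest at 16 HPI, where the difference of Kcnk18 from 24 HPI did not pass (-0.89 ± 0.36, adjusted p = 0.13).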

How the data were processed

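RNA of eDRG spot cultures was depleted of ribosomal RNA and sequenced. The authors deposited raw counts per gene for each library, made with STAR on mm10 and a GENCODE annotation, and the submitters' processing notes name FastQC, STAR, HTSeq and DESeq2. Whether counting used strand is not given in the sources used here. Entries that name no gene (25.2% to 33.2% of the counts of a library) were left out. Coordinates and gene types came from a GENCODE annotation of GRCm38, in which 47224 of 47643 identifiers matched, and sequences came from RefSeq.

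All 18 libraries were fitted with edgeR 4.0.16 (TMM factors, quasi-likelihood test, two-sided) with group and replicate number as terms, and p-values were adjusted by Benjamini-Hochberg over 13771 genes. CPM are counts over library totals. Ratios of summed counts have exact 95% intervals that cover counting error only. Tested on simulated data for this comparison, the fit called 196 of the 200 genes given a 3-fold change and made 2 calls among the rest. The simulated counts had the spread the fit had estimated and replicate effects of the form it removes. The result thus holds only where the assumptions of the fit do.

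The replicate number was kept as a term because same-numbered libraries deviated together: the control and 16 HPI libraries of one number correlated at 0.63, 0.52 and 0.67, and those of different numbers at -0.48 to -0.20. Deviations were taken from the mean of each group, which by itself pushes the values of different numbers below 0 where those of one number are positive. Genes named were the 15 called in each direction with the largest change in the same direction in 3 batches and off the residual RNA list, up to 5 risers and 5 fallers of each list, 14 genes named whatever their result and the marker genes. The 31 gene lists, the marker lists and the comparison itself were chosen with earlier results of these data known. Alternatives were DESeq2 1.42.0, other scaling, other filters, no batch term and each library left out. Results for a few genes are not reported here.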

Additional observations from a re-analysis of the deposited data

Results flagged for a closer look

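Each result here was singled out because a leading or fixed gene of the 16 HPI comparison also differed by more than 2-fold, at an adjusted p under 0.05 by edgeR's quasi-likelihood test, in a direct comparison of 16 HPI with a neighboring time. Values are log2 differences, 16 HPI minus the other time.

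Higher at 16 than at 8 HPI were Bpifc (2.89), Grk1 (2.74), 4930438A08Rik (2.54), Rest (2.43), Smim3 (2.33), Tgif1 (2.14), Snx33 (2.02), Nts (2.01), Upp1 (1.99), Kcnj6 (1.95) and Dhrs9 (1.15). Lower than at 8 HPI were Oprk1 (-1.76), Wnt16 (-1.57), Kcnk18 (-1.54), Chrm5 (-1.41), Vcan (-1.22), Rgs5 (-1.16), Gna14 (-1.11) and Fos (-1.0).

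Higher at 16 than at 24 HPI were Atf3 (1.97), Rest (1.81), Tgif1 (1.72), Snx33 (1.1), Grk1 (1.08) and Ddit3 (1.04), and lower were Gper1 (-2.07) and Gm16334 (-1.36). Mir6236 (3.25 against 8 HPI, 3.82 against 24 HPI) and ENSMUSG00000089855.1 (3.73 and 4.9) were far higher in the first and second 16 HPI libraries than in the third, and the part of residual RNA in them was not tested.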

How the results depend on the processing

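The 205 genes called at 16 HPI against control became 335 with no filter on low counts, 311 with a minimum of 10 counts over all libraries and 68 with over 1 CPM in all 18 libraries. Without the replicate block 108 were called. With a library left out the count lay between 170 and 256. Against 8 HPI the 129 calls became 213 with no filter, 35 with over 1 CPM in all libraries and 37 without the replicate block, and 95 to 145 with a library left out. Against 24 HPI the 70 calls became 46 with the DESeq2 Wald test, 108 with no filter, 21 with over 1 CPM in all libraries and 18 without the replicate block, and 41 (without the first 16 HPI library) to 85 with a library left out, with 46 without the third 24 HPI library. The filters change which genes are tested, and the cause of the other shifts was not tested.

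Of 222 named genes 218 passed, and 80 of them passed under every alternative. Gap43 changed sign, from -0.04 to 0.0142 without the first control library, within -0.107 to 0.0142 over the libraries left out, and passed in none of these. Of the list medians under alternatives, 418 moved by less than the spread between batches and 47 by more. Depth limits genes under 1 CPM, where 82 of the 162 called higher genes lay in the control and 25 of the 43 called lower genes lay at 16 HPI.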
